A study of Bos taurus with 8 samples.

Results

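JCHAIN, MZB1, TNFRSF17, XBP1 and PRDM1, 5 genes known for the antibody-secreting state of B lineage cells, were followed in single-cell RNA libraries of cattle blood. They were found by gene name in the count tables and were listed in each of the 4 libraries, as 5 of 21861 genes. The blood came from 4 Holstein cattle, lactating females of 2 years of age, and was pooled before it was divided, so no library stands for a single animal. 1 portion had no LPS (lipopolysaccharide, the endotoxin of Gram-negative bacteria), and the others received 2 µg/ml of LPS, for 2, 4 or 8 h, before peripheral blood mononuclear cells (PBMCs) were isolated. Every portion gave 1 single-cell RNA library and 1 single-cell accessibility library. With 1 library per treatment no difference between times has a replicate check, no p-value can be given, and the effects of LPS, of time in incubation and of the library cannot be told apart. All 4 portions share the same pooled animals, and no length of incubation is given for the portion without LPS.

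When a B cell becomes a plasma cell, PRDM1 (also called BLIMP-1) represses the B cell programme and the transcription factor XBP1 widens the secretory pathway of the endoplasmic reticulum. JCHAIN is the joining chain of polymeric IgA and IgM, MZB1 is a chaperone of the endoplasmic reticulum that helps antibodies to be assembled and secreted, and TNFRSF17 (BCMA) is the receptor through which the cytokines TNFSF13 and TNFSF13B keep plasma cells alive. XBP1 and PRDM1 are also known from other cells: XBP1 serves the unfolded protein response in many cell types, and PRDM1 acts in T cells and in myeloid cells.

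The libraries held 30756 barcodes, of which 30575 had at least 200 genes and under 20% mitochondrial UMIs (unique molecular identifiers, the counted RNA molecules). Of these, 23394 were called deep, with at least 3000 UMIs, and 3848 were called shallow, with 500 to 2000 UMIs. In the order no LPS, 2 h, 4 h and 8 h, which all runs of 4 values follow, there were 6202, 7867, 6709 and 2616 deep cells, with a median of between 4902 and 6518 UMIs. The shallow barcodes numbered 1122, 1167, 653 and 906, with a median of between 1061 and 1204 UMIs. Between 0.542% and 0.803% of the barcodes of a library had a sequence that also occurred in another library. Levels are UMIs summed over a class of barcodes, scaled to counts per 1000000 UMIs of that class (CPM), and each is compared only with the same gene elsewhere. Intervals are 95% and cover counting error only. A sum over a class cannot tell more cells from more RNA per cell, so the number of cells with a UMI is given beside it.

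In deep cells JCHAIN and MZB1 were lower in the later libraries, TNFRSF17 was lowest at 8 h, XBP1 stayed within a narrow range, and PRDM1 was higher in each LPS library than without LPS. JCHAIN stood at 1029, 1040, 778 and 641 CPM. The 8 h level was 0.623 times that without LPS (interval 0.613 to 0.634). MZB1 stood at 313, 308, 208 and 147 CPM. At 8 h it was 0.471 times the level without LPS (0.455 to 0.487), while at 2 h the ratio was 0.985 and its interval, 0.964 to 1.01, held 1. Both genes of the assembly of antibodies thus had their 2 highest levels without LPS and at 2 h.

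TNFRSF17, the survival receptor, was rare throughout, at 8.73, 6.96, 5.98 and 2.51 CPM. Its 8 h sum of 73 UMIs gave a ratio of 0.288 (0.222 to 0.369). XBP1 stood at 18.4, 17.6, 16.7 and 21.5 CPM, and the 8 h ratio was 1.17 (1.06 to 1.29). PRDM1 stood at 47.0 CPM without LPS and at 87.6, 63.7 and 66.3 CPM with LPS, and its largest ratio, at 2 h, was 1.86 (1.78 to 1.95). The 2 transcription factors therefore did not go along with the other 3 members at 8 h. None of the 5 members was past 2-fold of no LPS at 2 h or at 4 h, where 3.75% and 5.42% of all tested genes were. At 8 h, 2 of the 5, MZB1 and TNFRSF17, were past 2-fold lower, against 1.30% of all genes in that direction and 1.85% in either.

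The size of the differences at 4 h and 8 h depended on whether cells with much RNA were included. JCHAIN and MZB1 lay further below no LPS in both settings given here that left such cells out. Without the cells with over 3000 genes, the upper limit in the study's own methods, the log2 ratio at 8 h moved from -0.68 to -2.39 for JCHAIN and from -1.08 to -2.40 for MZB1. When the 5% of deep cells with the most UMIs were left out, the 4 h log2 ratio moved from -0.40 to -1.56 for JCHAIN and from -0.58 to -2.07 for MZB1. The 8 h call for TNFRSF17 ended, with a log2 ratio of -0.88 in place of -1.47, when every cell was given equal weight.

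**Figure D1:**
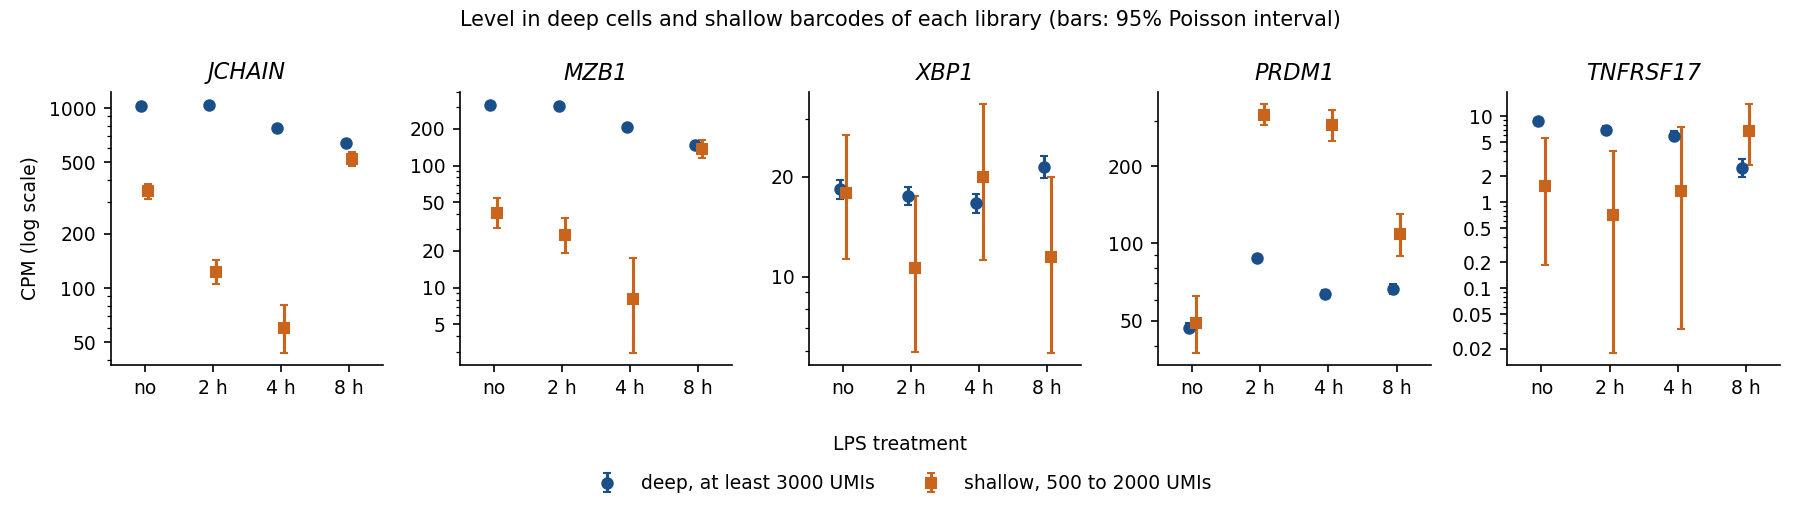
Level of each gene (CPM, log scale, with its own axis per gene) in deep cells (blue circles) and shallow barcodes (orange squares) of the 4 libraries, with exact 95% Poisson intervals. JCHAIN and MZB1 lie far lower in shallow barcodes than in deep cells up to 4 h and reach 0.814 and 0.928 of the deep level at 8 h, while PRDM1 lies higher in shallow barcodes in all 3 LPS libraries.

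The members also differed in how their UMIs were spread over cells. A UMI of JCHAIN was found in 14.3%, 11.6%, 11.04% and 17.6% of deep cells, a UMI of MZB1 in 6.29%, 4.82%, 3.99% and 5.58%, and a UMI of TNFRSF17 in 1.89%, 1.55%, 1.24% and 0.956%. In cells with CD3E as their only marker, which should lack JCHAIN, the share with a JCHAIN UMI was 8.04%, 6.67%, 5.17% and 8.20%, at median depths of 4523, 4527, 5089 and 5856 UMIs against 5130, 4902, 5429 and 6518 for all deep cells. The share over all deep cells was thus above that of CD3E-only cells in each library. The CD3E-only share serves as a reference, and whether its UMIs were background RNA was not tested.

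The amount of RNA was far more uneven than the share of cells. The 1% of deep cells with the most JCHAIN held 61.9%, 72.3%, 80.2% and 81.3% of all JCHAIN UMIs of deep cells. For MZB1 the same share was 65.1%, 71.7%, 82.7% and 85.3%, and for TNFRSF17 it was 86.6%, 89.5%, 95.1% and 100%. XBP1 and PRDM1 were spread: their top 1% of cells held between 24.8% and 28.9% and between 25.6% and 29.3%. A single cell reached 1405 JCHAIN UMIs without LPS and 1116 at 8 h, whereas no deep cell held more than 14 UMIs of XBP1 or 61 of PRDM1.

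To describe the cells with most JCHAIN, deep cells with JCHAIN at 1% or more of their UMIs were taken as JCHAIN-high. This is a range of JCHAIN and not a cell type, and JCHAIN in these cells is no finding. The library without LPS had 65 such cells (1.05% of deep cells, interval 0.810% to 1.33%) and the 2 h library had 73 (0.928%, 0.728% to 1.17%). There were 43 at 4 h (0.641%, 0.464% to 0.862%) and 11 at 8 h (0.420%, 0.210% to 0.751%). The intervals of the first and the last library did not overlap, those of neighbouring libraries did. A further 72, 52, 36 and 16 cells lay just under the limit, between 0.5% and 1%. The JCHAIN-high cells were large, with median totals of 20522, 23188, 28951 and 38155 UMIs against 5103, 4879, 5414 and 6503 in the other deep cells. Of these cells, 33, 47, 31 and 10 had over 3000 genes, so that the study's upper limit would leave 32, 26, 12 and 1.

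MZB1 and TNFRSF17, which did not choose these cells, were concentrated in them. MZB1 had a UMI in all JCHAIN-high cells of 3 libraries and in 42 of 43 at 4 h, with 3112, 3832, 3091 and 2018 CPM. This was 13.5, 21.1, 23.1 and 17.1 times the level in the other deep cells. TNFRSF17 stood at 147, 104, 139 and 67.5 CPM in them and at 4.68, 3.47, 2.55 and 1.5 CPM in the other deep cells, a ratio of 30.1 to 54.4. In each library 41.1% to 58.3% of its deep UMIs lay in the JCHAIN-high cells, which held only 1.53% to 3.47% of all deep UMIs. Within JCHAIN-high cells, MZB1 at 8 h was 0.648 times (0.603 to 0.696) and TNFRSF17 0.459 times (0.302 to 0.673) the level without LPS, and at 4 h the intervals of both ratios held 1. The 8 h values rest on 11 cells, of which 6 had a TNFRSF17 UMI. MZB1 ranged from 310 to 4540 CPM over these cells, a spread that the intervals do not cover. At 2 h MZB1 was 1.23 times (1.19 to 1.28) and TNFRSF17 0.709 times (0.585 to 0.859) the level without LPS.

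XBP1 and PRDM1 were higher in the JCHAIN-high cells too, by a smaller ratio. XBP1 stood at 49.7, 52.9, 44.1 and 67.5 CPM there, 2.76 to 3.25 times the other deep cells. PRDM1 stood at 133, 180, 180 and 157 CPM, 2.14 to 3.0 times the others. The JCHAIN-high cells held only 4.81% to 10.4% of the XBP1 UMIs and 3.63% to 8.06% of the PRDM1 UMIs, so most UMIs of both transcription factors in deep cells came from elsewhere. Across the range of JCHAIN, TNFRSF17 was 0.511 CPM in cells under 0.1% JCHAIN without LPS, 58.8 CPM between 0.5% and 1%, and 259 CPM at 2% and over. PRDM1 in the same library was 36.9, 111 and 139 CPM, and XBP1 was 16.5, 32.3 and 37.6 CPM.

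Markers of monocytes and of B cells were lower in the JCHAIN-high cells, and lists for 2 other cell types were not. CD14, the LPS co-receptor of monocytes, stood at 231, 68.1, 44.9 and 74.2 CPM there, against 701, 232, 193 and 345 in the other deep cells. In the 20, 25, 18 and 3 cells with JCHAIN at 2% or more, CD14 had 22, 0, 0 and 1 UMIs, and a list of 11 monocyte markers summed to 374, 19.3, 0 and 56.7 CPM. In cells under 0.1% JCHAIN the list summed to 2639, 837, 531 and 1159 CPM. MS4A1 (CD20), which plasma cells lose, was at 26.8, 15.7, 26.5 and 101.2 CPM in JCHAIN-high cells against 232, 314, 304 and 272 in the others. A list of 7 NK cell markers was higher with more JCHAIN, at 1075, 883, 1167 and 359 CPM in cells at 2% or more against 187, 189, 217 and 171 CPM in cells under 0.1%. Nearly all of it was GNLY (granulysin, a cytotoxic granule protein, picked after its values were seen), at 1018, 882, 1164 and 359 CPM against 90.6, 98.9, 124 and 99.9, while KLRF1 was at 0 and NCR1 had 1 UMI in the 4 libraries together. A list of 10 plasmacytoid dendritic cell markers, 8 of them in the tables, stood at 348, 403, 616 and 312 CPM against 326, 327, 438 and 324. Its genes went both ways, and those named here were picked after their values were seen. LILRA4, a surface receptor of such cells, had 14, 0, 0 and 0 UMIs at 2% or more, and SPIB was lower too. TCF4 was higher there, at 115, 123, 128 and 123 CPM against 34.0, 39.4, 51.8 and 43.7. BLNK was also higher, at 58.8, 102, 121 and 85.1 CPM against 26.2, 26.3, 38.9 and 46.4. IRF8 stood at 68.2, 73.6, 23.2 and 28.4 CPM against 15.3, 23.9, 20.2 and 16.7, with only 10 UMIs at 4 h and 3 at 8 h. IRF7, RUNX2 and PLD4 differed in direction between libraries. The part of these markers in the values above was not tested. Whether some JCHAIN-high barcodes held more than 1 cell was not tested.

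**Figure D2:**
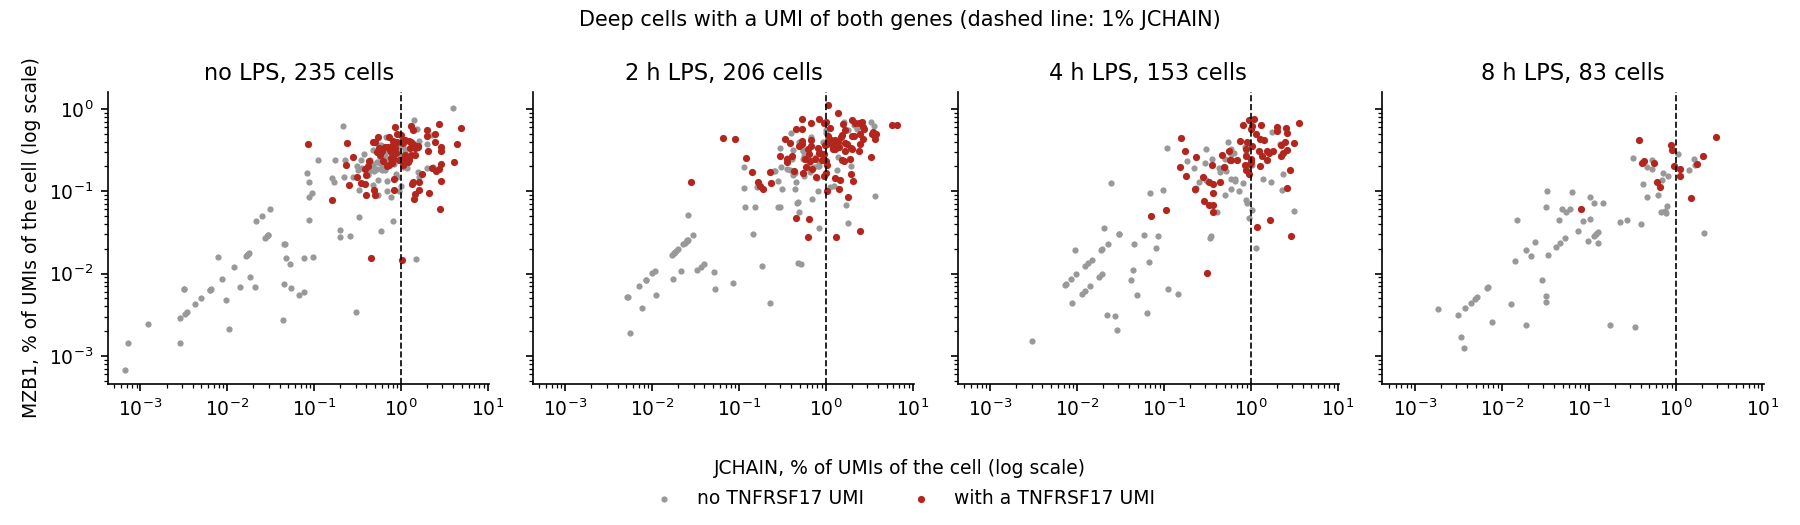
Each point is a deep cell with a UMI of both JCHAIN and MZB1 (235, 206, 153 and 83 cells), placed by the share of its UMIs from each gene (log axes), with cells that also have a TNFRSF17 UMI in red. The cells form a group near 1% JCHAIN and 0.1% to 1% MZB1 that holds most red points, and a sparse tail at low shares that is mostly grey; the dashed line is the 1% limit.

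Genes of the secretory pathway were higher together in the JCHAIN-high cells. Of 45 such genes, 37 were past 2-fold higher than in the other deep cells in all 4 libraries and 0 were past 2-fold lower, where 3.58% of all 10906 tested genes were higher and 10.3% lower. The median log2 ratio of the list was 1.93 and that of all genes -0.38. TXNDC5, a protein disulphide isomerase, stood at 1663, 1850, 1610 and 1293 CPM in JCHAIN-high cells and at 149, 132, 120 and 105 CPM in the others. DERL3, which helps to remove misfolded proteins from the endoplasmic reticulum, stood at 384, 401, 378 and 279 CPM against 48.0, 44.1, 34.7 and 31.4. In the sum of the libraries TRAM2, of protein translocation, was 14.2 times (11.98 to 16.9) and PDIA4, a further disulphide isomerase, 8.78 times (8.47 to 9.10) the level in the others. ERN1, the enzyme that splices XBP1 RNA and a gene picked after its values were seen, was 6.86 times (5.59 to 8.36) the others.

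Of 15 genes of plasma cell differentiation and maturation, 13 could be tested. Of all genes, 3.58% were past 2-fold higher and 10.3% lower in the same comparison. In all 4 libraries 6 were past 2-fold higher: TENT5C, which stabilises immunoglobulin RNA, at 13.4 times the others in the sum, EAF2 at 10.2 times, TNFRSF13B (TACI, a receptor of the same ligands as TNFRSF17) at 6.41 times, the coactivator POU2AF1 at 5.58 times, and ELL2 and IRF4. Another 4 were past 2-fold lower. CD38, a common plasma cell surface marker in people, stood at 6.54, 1.96, 5.15 and 9.0 CPM against 50.01, 48.0, 46.7 and 37.7 in the others. ITM2C was 0.119 times and TNFRSF13C, the receptor of TNFSF13B on B cells, 0.245 times the others, and FCRL5 had 1 UMI, a ratio of 0.0287 (0.000726 to 0.160). SDC1 (CD138), the usual surface marker of plasma cells, had 0 UMIs in the JCHAIN-high cells of all libraries and only 0.0157 CPM in the others, so it could not be compared. The list was therefore mixed, with the surface markers CD38 and FCRL5 among the lower genes.

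The B cell programme, which PRDM1 is known to repress, was lower. Of 10 genes, 0 were past 2-fold higher and 8 were past 2-fold lower in all 4 libraries, against 3.58% and 10.3% of all genes. The transcription factor PAX5 had 4 UMIs in the JCHAIN-high cells, 0.0610 times the others (0.0166 to 0.156). BACH2 with 3 UMIs was 0.0670 times (0.0138 to 0.196), the receptor CD22 0.0482 times (0.0177 to 0.105) and SPIB 0.0704 times (0.0364 to 0.123). CIITA, the regulator of MHC class II genes, was 0.599 times the others and did not pass. Of the ligands of TNFRSF17, TNFSF13B was 0.303 times the others (0.236 to 0.382), and TNFSF13 had too few UMIs to be tested.

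Cycling genes were higher in part, with 5 of 10 past 2-fold higher in all 4 libraries, against 3.58% of all genes. Among the 5 was MKI67, at 172, 416, 453 and 261 CPM against 69.2, 75.1, 73.3 and 79.9. RRM2, CCNB1 and TYMS were 4.92, 3.91 and 3.39 times the others in the sum. This count depended on which cells were compared. It was 0 of 10 at a limit of 2% JCHAIN, in the 3 libraries with at least 10 such cells, and 0 of 10 when the other cells were restricted to those with over 3000 genes, while the secretory list had 34 and 22 of 45 higher and the B cell programme 7 and 5 of 10 lower. Of all genes 2.79% and 2.25% were higher and 16.8% and 10.1% lower in these comparisons.

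**Figure D3:**
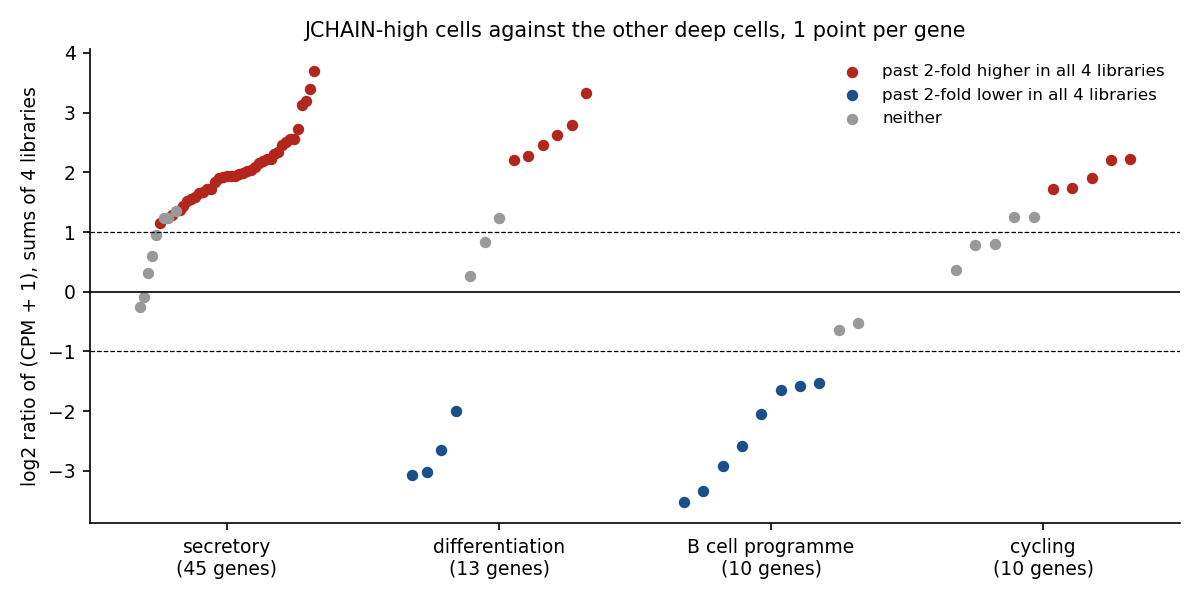
Each point is a tested gene of 1 of 4 lists, placed by its log2 ratio of (CPM + 1) in JCHAIN-high cells over other deep cells, summed over the 4 libraries, and sorted within its list. Dashed lines mark 2-fold; red genes (37, 6, 0 and 5) were past it higher and blue genes (0, 4, 8 and 0) lower in every library, and grey genes were neither.

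The 10 genes with the largest ratios in JCHAIN-high cells, ranked by the lowest of the 4 libraries among genes with at least 200 deep UMIs in each, with JCHAIN set aside, included 7 that the tables list by identifier only. The first, ENSBTAG00000047700, stood at 43762 CPM in the JCHAIN-high cells and at 1116 CPM in the others without LPS. The 3 with names were MZB1, BCL2L15 and TXNDC5. TNFRSF17, with larger ratios than these 3, missed the minimum at 8 h with its 73 UMIs. BCL2L15, a relative of BCL2, stood at 1182, 945, 1066 and 841 CPM against 80.3, 58.0, 68.0 and 67.2. Because no named immunoglobulin genes were listed, antibody transcripts were not analysed here.

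Deep cells were also divided by whether they had a UMI of MS4A1 (B cells), CD14 (monocytes) or CD3E (T cells) alone, of none of the 3, or of more than 1. A list of 11 monocyte markers, CD14 among them, summed to between 4126 and 7238 CPM in CD14-only cells. In CD3E-only cells, which have no CD14 UMI by definition, it summed to between 20.7 and 39.7 CPM. A list of 11 B cell markers, MS4A1 among them, summed to between 2334 and 3028 CPM in MS4A1-only cells. The lists hold the genes that chose the groups, so part of this match was fixed in advance. Among cells with at most 1 marker, JCHAIN, MZB1 and TNFRSF17 were highest in those with none, a group of 494, 774, 661 and 168 cells. JCHAIN stood there at 4288, 4384, 3301 and 1864 CPM, against 960, 963, 646 and 819 CPM in MS4A1-only, 615, 884, 511 and 535 in CD14-only and 261, 340, 181 and 74.0 in CD3E-only cells. MZB1 in cells without a marker was 946, 1091, 759 and 219 CPM and TNFRSF17 was 34.3, 26.9, 27.3 and 3.70 CPM. At 8 h the TNFRSF17 value rests on 5 UMIs and overlapped that of MS4A1-only cells (3.48 CPM), and MZB1 was slightly higher in cells with more than 1 marker (241 CPM). The JCHAIN-high cells were spread over these groups: 27, 37, 27 and 4 had none of the markers, 8, 14, 9 and 5 had MS4A1 alone, 13, 6, 0 and 1 had CD14 alone, and 9, 7, 3 and 0 had CD3E alone. Part of these levels came from JCHAIN-high cells. Without them JCHAIN was 576, 511, 291 and 215 CPM in MS4A1-only and 65.3, 128, 106 and 74.0 in CD3E-only cells. In cells with none of the markers it was then 1196, 1022, 790 and 659 CPM. In CD14-only cells it was 259, 338, 511 and 11.5 CPM, where 1 JCHAIN-high cell had set the 8 h level. At 4 h, 111 of these 113 CD14-only cells were under 0.2% JCHAIN and held 134 of the 939 JCHAIN UMIs. The level in CD14-only cells under 0.2% JCHAIN was 10.9, 41.6, 76.7 and 11.5 CPM.

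Compared with CD3E-only cells, in which 8.04%, 6.67%, 5.17% and 8.20% had a JCHAIN UMI, MS4A1-only cells had one in 21.1%, 16.4%, 16.8% and 19.2%, at median depths of 4984, 5262, 5918 and 7542 UMIs. After every cell was thinned to 3000 UMIs the shares were 15.4%, 11%, 9.47% and 10.2% in MS4A1-only and 5.12%, 4.19%, 3.1% and 4.25% in CD3E-only cells. The JCHAIN share of MS4A1-only cells was thus above that of CD3E-only cells at equal depth in all 4 libraries. As levels, JCHAIN was 3.68, 2.83, 3.57 and 11.1 times and MZB1 5.18, 3.26, 3.44 and 3.43 times as high in MS4A1-only as in CD3E-only cells, all past 2-fold higher, where 8.98%, 9.16%, 8.79% and 8.92% of all genes were. Without the JCHAIN-high cells the ratio was 8.83, 3.99, 2.75 and 2.91 for JCHAIN and 11.1, 4.71, 2.93 and 1.01 (0.852 to 1.19) for MZB1, so that MZB1 at 8 h no longer differed beyond counting error. In MS4A1-only cells under 0.2% JCHAIN, the JCHAIN level was 93.7, 62.6, 58.6 and 56.1 CPM, against 19.3, 23.4, 15.0 and 21.7 CPM in the matching CD3E-only cells. The MZB1 share was 7.74%, 6.22%, 5.44% and 8.31% in MS4A1-only cells and 2.13%, 2.14%, 1.48% and 1.86% in CD3E-only cells.

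PRDM1 followed another pattern and was highest in CD14-only cells, without LPS within the interval of cells with none of the markers (67.3 CPM). It stood at 69.4 CPM without LPS and at 256, 187 and 169 CPM with LPS in CD14-only cells. In CD3E-only cells it stood at 23.6, 38.7, 38.3 and 28.2 CPM and in MS4A1-only cells at 23.0, 38.1, 30.1 and 25.2 CPM, so all 3 groups were highest at 2 h, CD3E-only cells with an overlapping interval at 4 h. The ratio of CD14-only to CD3E-only cells was 2.94 (2.59 to 3.35), 6.62 (6.07 to 7.22), 4.89 (4.30 to 5.55) and 6.0 (5.03 to 7.15), past 2-fold higher in each library, as were 15.7%, 13.1%, 12.9% and 14.3% of all genes. In CD14-only cells the ratio to no LPS was 3.69 at 2 h (3.35 to 4.06), where 3.53% of all genes were past 2-fold higher, 2.70 at 4 h (2.36 to 3.08), against 5.47%, and 2.44 at 8 h (2.10 to 2.82), against 4.12%. In CD3E-only cells the ratios were 1.64, 1.63 and 1.2 and in MS4A1-only cells 1.65, 1.31 and 1.09. The differences between these ratios have no replicate test. The MS4A1-only ratios depended on cells with more JCHAIN. In MS4A1-only cells under 0.2% JCHAIN, PRDM1 was 8.99, 26.2, 21.8 and 18.0 CPM, a larger relative rise with LPS. In the matching CD3E-only cells PRDM1 was 20.8, 36.0, 34.9 and 26.5 CPM.

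The share of cells gave the same order for PRDM1. It was 46.1%, 84.9%, 77.9% and 69.9% of CD14-only cells, at median depths of 13772, 14441, 15200 and 17707 UMIs, against 8.56%, 13.3%, 13.8% and 12.2% of CD3E-only cells. Thinned to 3000 UMIs, 16.5%, 48.7%, 48.7% and 38.6% of CD14-only cells and 4.81%, 8.06%, 7.82% and 6.04% of CD3E-only cells had a UMI. The CD14-only groups shrank from 647 cells without LPS to 312, 113 and 83, so the later values rest on fewer cells, and CD14 itself, which chose the group, was lower in deep cells with LPS (226, 189 and 341 against 688 CPM).

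XBP1 was likewise highest in CD14-only cells, at 27.7, 33.3, 25.6 and 43.5 CPM, against 12.3, 13.6, 15.5 and 19.7 CPM in CD3E-only cells. The ratio of these groups was 2.26 (1.87 to 2.73), 2.45 (2.02 to 2.97), 1.65 (1.19 to 2.24) and 2.21 (1.64 to 2.94). It was lowest in MS4A1-only cells in all 4 libraries, at 5.88, 9.74, 9.33 and 8.00 CPM. Its share of MS4A1-only cells, 2.47%, 4.46%, 5.33% and 5.25%, was below the 5.88%, 6.75%, 8.55% and 11.3% of CD3E-only cells. In cells with none of the markers, where the other 3 members peaked, XBP1 was 20.5, 26.0, 18.9 and 20.0 CPM, and its interval overlapped that of CD14-only cells in all libraries but that of 8 h. Cells with more than 1 marker, at 24.8, 23.1, 25.1 and 27.1 CPM, overlapped CD14-only cells without LPS and at 4 h.

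**Figure D4:**
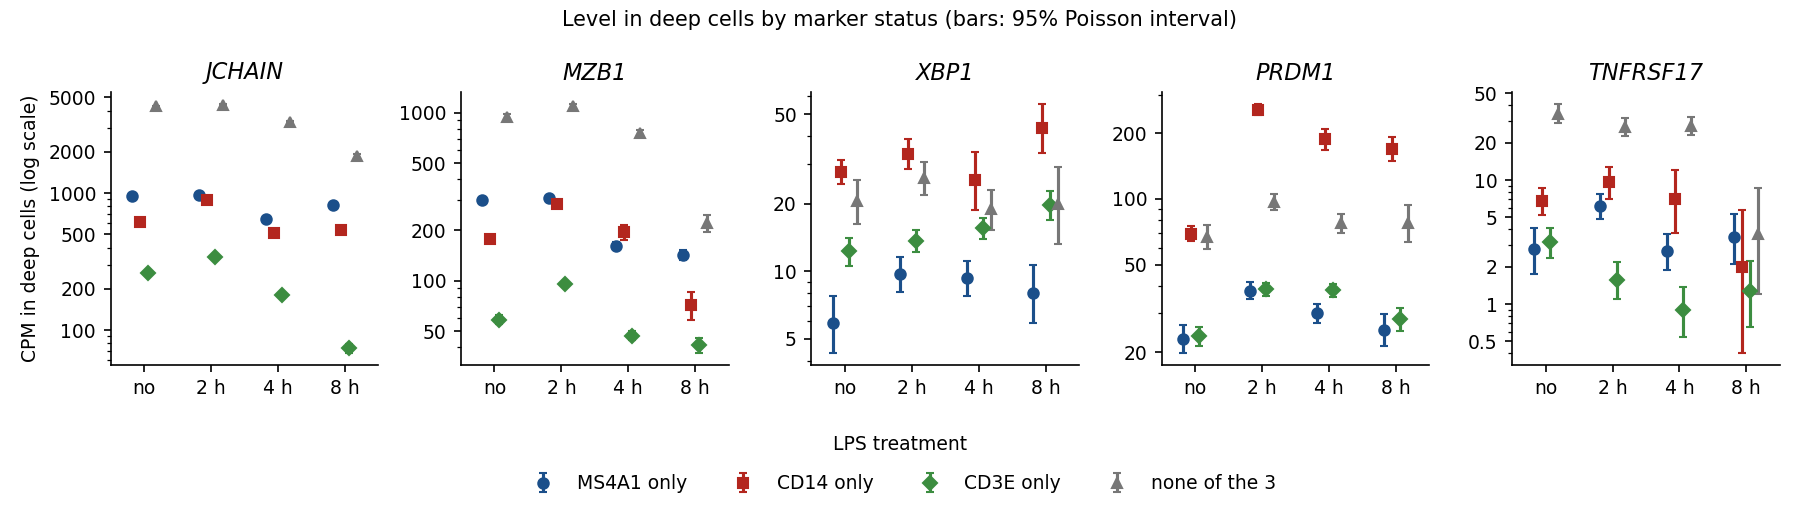
Level of each gene in deep cells (CPM, log scale, own axis per gene) by marker status and library, with exact 95% Poisson intervals. Of the 4 groups plotted, cells with none of the 3 markers (grey triangles) are highest for JCHAIN and MZB1 and, up to 4 h, for TNFRSF17, while PRDM1 and XBP1 are highest in CD14-only cells (red squares), with PRDM1 at 256 CPM at 2 h.

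Shallow barcodes can hold free RNA, damaged cells or small cells, which these counts cannot tell apart. In them JCHAIN and MZB1 separated the 8 h library from the others. JCHAIN stood at 345, 124, 60.2 and 522 CPM in shallow barcodes (444, 174, 45 and 547 UMIs). MZB1 stood at 41.2, 27.0, 8.03 and 136 CPM (53, 38, 6 and 143 UMIs). In relation to deep cells of the same library, JCHAIN was 0.335, 0.119, 0.0773 and 0.814 times and MZB1 0.132, 0.0876, 0.0385 and 0.928 times as high. The MZB1 interval at 8 h, 0.780 to 1.096, held 1. Past 2-fold lower in shallow than in deep were 3 of the 5 members (JCHAIN, MZB1 and TNFRSF17) in the first 3 libraries and 0 at 8 h, against 3.16%, 6.56%, 10.4% and 4.54% of all genes.

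TNFRSF17 moved the same way on few UMIs, and XBP1 and PRDM1 did not. TNFRSF17 had only 2, 1, 1 and 7 UMIs in the shallow barcodes, with ratios to deep cells of 0.178 (0.0215 to 0.646), 0.102 (0.00257 to 0.571), 0.224 (0.00565 to 1.26) and 2.66 (1.03 to 5.77). XBP1 had 23, 15, 15 and 12 UMIs, and its interval held 1 without LPS, at 2 h and at 4 h, while the 8 h ratio was 0.534 (0.274 to 0.939). In the LPS libraries PRDM1 was 3.62, 4.54 and 1.64 times as high in shallow barcodes as in deep cells, and without LPS it was 1.04 times as high (0.797 to 1.34). PRDM1 at 2 h and 4 h and TNFRSF17 at 8 h were past 2-fold higher, where 13.8%, 22.9% and 10.6% of all genes were.

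At 8 h the JCHAIN UMIs of shallow barcodes were spread thinly. Of 906 barcodes, 354 (39.1%, interval 35.9% to 42.3%) had a UMI, 219 of them had 1 and 133 had 2 to 4, and the highest had 5. Barcodes with 5 UMIs or more held 1.83% of the JCHAIN UMIs, where they held 78.4%, 42.0% and 37.8% in the earlier ones. In the other libraries 8.73%, 7.54% and 4.29% of the shallow barcodes had a UMI. Thinned to 500 UMIs, the shares were 5.70%, 4.54%, 2.91% and 20.4%. Shallow barcodes with JCHAIN at 1% or more numbered 10, 2, 1 and 0, and the 10 without LPS held 73.6% of that library's shallow JCHAIN UMIs. The high level at 8 h was thus a low count in many barcodes, and the level without LPS a high count in few.

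In shallow barcodes at 8 h JCHAIN UMIs were found in barcodes of every marker status. A JCHAIN UMI was found in 38.9% of those with CD3E alone (interval 31.2% to 46.9%, median 1276 UMIs), 34.3% of those with CD14 alone (25.3% to 44.2%, median 1185 UMIs), 29.3% of those with none (24.7% to 34.1%, median 925 UMIs) and 54.5% of those with MS4A1 alone (45.2% to 63.5%, median 1256 UMIs). The share in barcodes with CD3E alone serves as the reference here, and whether it was background RNA was not tested. The CD14-only share and that of barcodes without a marker lay below it, and the MS4A1-only share lay above it. Each of their intervals overlapped that of CD3E alone. As levels, JCHAIN was 450, 493, 405 and 683 CPM in the same order, so by level CD14-only barcodes lay above CD3E-only ones. Deep CD3E-only cells of the same library, with 74.0 CPM and 8.20%, were far lower.

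The shallow differences from no LPS depended on the barcodes taken. JCHAIN at 8 h was 1.51 times the level without LPS (1.33 to 1.72), MZB1 3.32 times (2.40 to 4.64) and TNFRSF17 4.30 times (0.819 to 42.4). Counted past 2-fold of no LPS in shallow barcodes were 2 of 5 members at 2 h and 3 at each of 4 h and 8 h, against 8.46%, 13.1% and 9.14% of all genes. With the limit lowered to 1000 UMIs the JCHAIN log2 ratio at 8 h turned from 0.60 to -0.34, and without barcodes at 1% JCHAIN or more it was 2.50. With cells of over 3000 genes left out, JCHAIN in shallow barcodes at 8 h was higher than in deep cells, with a log2 ratio of 3.05 in place of -0.30, and so was MZB1, with 3.53 in place of -0.11.

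**Figure D5:**
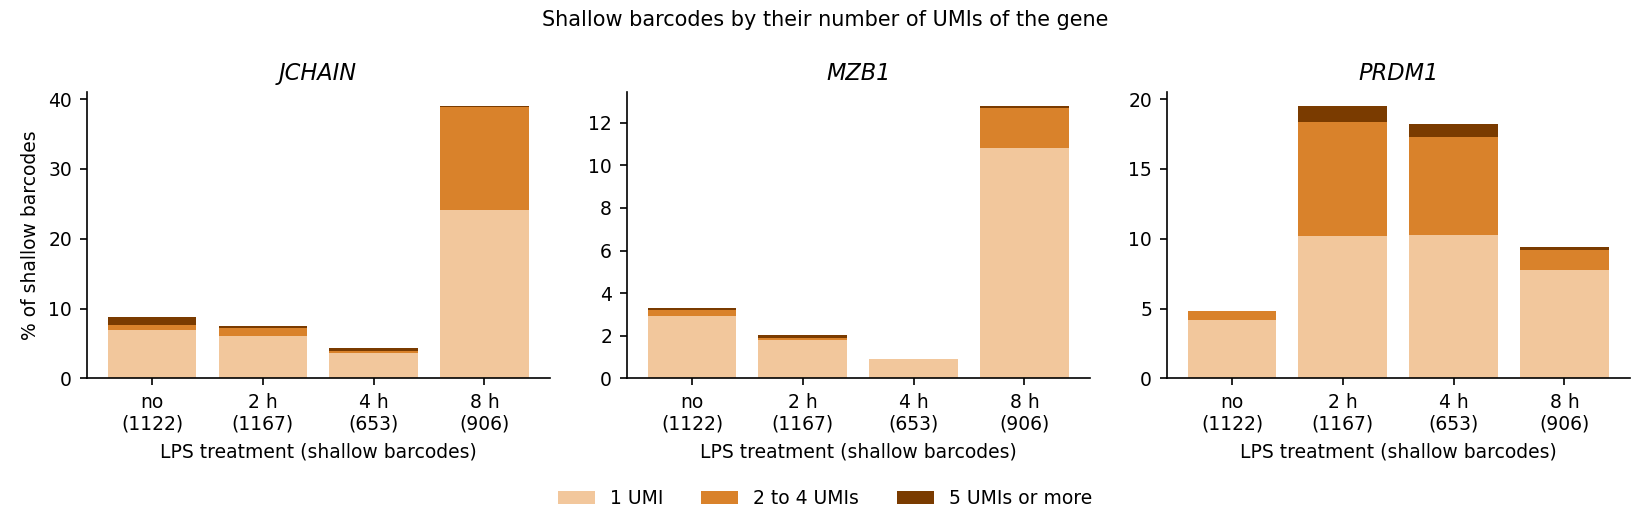
Share of shallow barcodes with 1, 2 to 4, or 5 and more UMIs of JCHAIN, MZB1 and PRDM1 in each library, stacked, with the number of barcodes in brackets and an axis from 0 for each gene. At 8 h, 39.1% of shallow barcodes had a JCHAIN UMI, nearly all with fewer than 5, while PRDM1 was most frequent at 2 h and 4 h.

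MZB1 was also counted per 100 JCHAIN UMIs, to compare the make-up of the 2 RNAs between classes of barcodes. Over all deep cells the ratio was 30.4, 29.6, 26.8 and 23.0. In JCHAIN-high cells it was lower, at 17.7, 20.9, 18.3 and 12.7, and in cells with 0.2% to 1% JCHAIN it was higher, at 41.9, 41.9, 35.6 and 29.0. JCHAIN both chose these classes and is the denominator, so this order is partly set by the choice. As a level, MZB1 was higher in JCHAIN-high cells, at 3112, 3832, 3091 and 2018 CPM against 2347, 2490, 1901 and 1749 CPM. A ratio of any class cut by JCHAIN has the same limit. In shallow barcodes it was 11.9 (8.80 to 15.9), 21.8 (15.0 to 31.2), 13.3 (4.65 to 31.4) and 26.1 (21.6 to 31.5). Without LPS the shallow interval lay below the ratio of the JCHAIN-high cells and that of all deep cells, at 2 h and 4 h it held both, and at 8 h it held that of all deep cells and lay above that of the JCHAIN-high cells. Among CD3E-only deep cells under 0.2% JCHAIN the ratio was 17.7, 14.0, 39.1 and 12.4.

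Other genes that led in JCHAIN-high cells were looked up in shallow barcodes. Of the 10, 7 had their highest shallow level at 8 h, as had 2867 of the 8960 genes with at least 20 UMIs in shallow barcodes of the 4 libraries together. MZB1 is among the 7, and so is a different gene, listed by identifier only, with at most 6 UMIs in any library. Also among them is ENSBTAG00000047700, whose 8 h interval (1083 to 1214 CPM) overlapped that without LPS (1026 to 1141). BCL2L15 stood at 35.7, 12.1, 14.7 and 88.8 CPM, TXNDC5 at 80.0, 54.7, 62.9 and 123 CPM, and ENSBTAG00000047121, named by identifier only, at 287, 251, 157 and 1966 CPM, close to its deep level of 2040 CPM at 8 h. This look-up was chosen after the JCHAIN values were seen, and the source of these UMIs was not tested.

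PRDM1 in shallow barcodes kept other company. It stood at 48.9, 317, 289 and 109 CPM (63, 447, 216 and 114 UMIs), and the LPS libraries had 6.49 (4.97 to 8.58), 5.91 (4.44 to 7.95) and 2.22 (1.62 to 3.08) times the level without LPS. A UMI was found in 4.81%, 19.5%, 18.2% and 9.38% of shallow barcodes. The barcodes with a PRDM1 UMI (54, 228, 119 and 85) had CXCL8, a chemokine that attracts neutrophils, at 14460, 83205, 73200 and 40869 CPM, against 8101, 19561, 15425 and 6843 CPM in those without. CSF3R, the receptor of granulocyte colony-stimulating factor, was at 236, 431, 831 and 327 CPM against 99.99, 78.0, 130 and 34.1 CPM. Both genes were picked after their values were seen. The list of 11 monocyte markers summed to 4972, 2495, 3274 and 1871 CPM with PRDM1 and to 2358, 598, 920 and 1163 CPM without. MZB1 in the PRDM1 barcodes was 118, 21.4, 0 and 99.9 CPM, from 8, 6, 0 and 11 UMIs, against 36.9, 28.4, 9.91 and 141 CPM in the others. JCHAIN was 1077, 103, 42.2 and 381 CPM against 304, 129, 64.4 and 539. CD14 alone was 1180, 510, 430 and 163 CPM with PRDM1 and 516, 83.3, 112 and 255 CPM without, so it was lower with PRDM1 at 8 h. A PRDM1 UMI thus went with CXCL8 and with the summed monocyte list, which itself holds CSF3R and CD14, in each library. Within that list CSF3R was higher in each library and CD14 in all but the 8 h library. JCHAIN and MZB1 were higher with PRDM1 in the library without LPS alone, where 6 of the 54 barcodes had a JCHAIN UMI. The part of cells with these markers in the PRDM1 level was not tested.

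As a description, the members were set against all genes over 24 sums, made of 6 classes of barcodes in each of the 4 libraries. The sums share libraries, so no p is given. The genes most like JCHAIN by Pearson's r of log2(CPM + 1), among 10482 genes, were BCL2L15, MZB1 and PDIA4 (r from 0.94 to 0.95). MZB1 was most like SERP1 (r = 0.96), PDIA4 and JCHAIN, and TNFRSF17 most like TXNDC5 (r = 0.93), CLDN3 and PDIA4. PRDM1 was most like TNFAIP3 (r = 0.97), SGK1 and IL1A, and XBP1 most like LIMA1 (r = 0.92), CHN2 and SERPINB1. Between members, r was 0.95 for JCHAIN with MZB1, 0.84 for JCHAIN with TNFRSF17, 0.58 for XBP1 with PRDM1, 0.16 for JCHAIN with XBP1 and -0.05 for JCHAIN with PRDM1.

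In the accessibility libraries, which count transposase fragments by gene and barcode, PRDM1 was higher in each LPS library than without LPS, as it was in RNA. It stood at 114 CPM without LPS (93.7 to 137) and at 206, 196 and 177 CPM with it, and XBP1 at 94.4 CPM (76.1 to 116), 119, 128 and 125. The XBP1 interval without LPS overlapped that of 2 h, 114.8 to 123. MZB1 stood at 27.7 (18.2 to 40.3), 37.4, 38.3 and 30.0 CPM, with an interval without LPS that held the other 3 values. The library without LPS had 975012 counts in all, against 11957904 to 30250143 in the others, which is why its intervals are wide. Only 352 of its 3121 barcodes had at least 500 counts, where all 4172, 3231 and 3163 barcodes with LPS did. In those 352, PRDM1 was 79.5 CPM (52.4 to 116). The share of all genes that were higher was not computed, so a difference in library quality cannot be told apart here. JCHAIN was listed at 2 h alone, with 34 counts, and its accessibility elsewhere and that of TNFRSF17 were not analysed here.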

How the data were processed

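Single-cell RNA was measured in 4 libraries and chromatin accessibility in 4, with 1 library of each per treatment. The RNA tables deposited hold unnormalised UMI counts of genes by barcodes, for which the authors ran Cell Ranger against the cattle genome ARS-UCD1.2 (bosTau9). The accessibility tables are counts of genes by barcodes too, and the rule that assigned fragments to genes is not given in the sources used here. Gene names and identifiers are those of the tables, without coordinates or sequences.

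Barcodes with under 200 genes or with 20% or more mitochondrial UMIs (13 mitochondrial genes) were left out, which removed 181 of 30756. No upper limit on genes was set and no doublet caller was run. UMIs were added up within each class of a library and given as CPM, with exact Poisson intervals for levels, exact conditional binomial intervals for ratios and Clopper-Pearson intervals for shares. Past 2-fold was judged on log2((CPM + 1)/(CPM + 1)) among genes with at least 20 UMIs in the compared sums, as a size and not a test. Depth ranged from 30902952 to 63770426 UMIs per RNA library, and 0 UMIs in a class allow up to 3 counts.

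Genes named were the 5 members, the 3 status markers, up to 4 genes per list in each direction, the 10 leading genes of JCHAIN-high cells with at least 200 UMIs (at most 2 shown that have only an identifier) and the 3 genes most like each member. Exceptions are stated. The members and all lists were chosen with earlier results of these data known, as was the wish to set shallow against deep barcodes.

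Python 3.11.15 with numpy 2.4.6, scipy 1.17.1, pandas 2.3.3 and matplotlib 3.10.9 was used. edgeR 4.0.16 (TMM) and DESeq2 1.42.0 (size factors) in R 4.3.3 served for alternative scalings, never for a test. The ratio step was tested on simulated data. Alternatives changed the depth limits, the JCHAIN limit, the upper gene limit, the mitochondrial limit, the weights of cells, the pseudocount, the status rule and the scaling, and left out JCHAIN-high cells, shared barcodes or 1 library.

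1 gene of the lists is not reported here by name.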

Additional observations from a re-analysis of the deposited data

Results flagged for a closer look

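For 2 members the 8 h library lay on opposite sides of no LPS in deep and shallow barcodes. JCHAIN was 0.623 times the level without LPS in deep cells and 1.51 times in shallow barcodes. MZB1 was 0.471 times in deep cells and 3.32 times in shallow barcodes. With 1 library per treatment the difference between the depth classes was not tested, and for JCHAIN it was lost when shallow barcodes were limited to 1000 UMIs.

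TNFRSF17 at 2 h lay on opposite sides of no LPS in 2 marker groups of deep cells. It was 2.23 times the level without LPS in MS4A1-only cells (81 UMIs against 23) and 0.501 times in CD3E-only cells (36 against 50). The difference was not tested. Part of these UMIs lay in JCHAIN-high cells. Without them the MS4A1-only level was 2.09 CPM (17 UMIs) without LPS and 3.45 CPM (44 UMIs) at 2 h. The CD3E-only level was then 1.21 CPM (19 UMIs) without LPS and 0.795 CPM (18 UMIs) at 2 h.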

How the results depend on the processing

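Each treatment had 1 library, so all statements are about these libraries. No paired analysis was possible because each treatment had 1 library, so no 2 treatments share 2 replicate numbers. Of 905 values recomputed under alternatives, 549 stayed within their counting interval or within 1.5 times a count, 355 moved further and 1 that was past 2-fold reversed: the log2 ratio of shallow to deep JCHAIN without LPS was 0.066 in place of -1.57 without cells of over 3000 genes. Of 335 log2 ratios under alternatives 23 changed sign, 22 of which were below 2-fold as reported, among them MZB1 in shallow barcodes at 2 h (from -0.59 to 1.21 up to 1000 UMIs). All 76 values with a mitochondrial limit of 10% and all 36 without shared barcodes stayed, and scaling by TMM or DESeq2 moved no value over 1.5 times. Levels by marker status were less stable. Thinning each cell to 3000 UMIs moved 51 of 80 over 1.5 times, and setting the status from 2 UMIs moved 23 of 60. JCHAIN in MS4A1-only cells without LPS, for example, was 960 CPM as reported, 422 CPM with status from 2 UMIs and 277 CPM when thinned.

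Members past 2-fold of no LPS in deep cells numbered 1 (without cells of over 3000 genes) and 2 (without the 5% deepest) in place of 0 at 4 h, and at 8 h 1 in place of 2 without JCHAIN-high cells, with equal weights or with a pseudocount of 5. In shallow barcodes at 2 h they numbered 4 up to 1000 UMIs and 1 without JCHAIN-high barcodes, in place of 2. Without cells of over 3000 genes, members lower in shallow than in deep were 0 without LPS and 1 at 2 h, in place of 3.

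The share of JCHAIN-high cells (no LPS, 2 h, 4 h, 8 h) was 2.95%, 2.07%, 1.67% and 1.53% at a limit of 0.2% (chosen after seeing the data), 2.21%, 1.59%, 1.18% and 1.03% at 0.5%, and 0.322%, 0.318%, 0.268% and 0.115% at 2%. It was 0.573%, 0.353%, 0.195% and 0.0455% without cells of over 3000 genes and 0.611%, 0.361%, 0.141% and 0.201% without the 5% deepest. MZB1 per 100 JCHAIN UMIs was 25.7, 26.1, 23.3 and 18.7 at 0.5%. Against other cells of over 3000 genes (chosen after seeing the data) the secretory list had 22 genes higher, the B cell programme 5 lower and the cycling list 0 higher. The cycling count was 8 at 0.5%, 0 at 2% and 1 without cells of over 3000 genes, the last 2 chosen after seeing the data. Leaving out 1 library gave 37 to 39 secretory genes higher and 5 to 7 cycling genes.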
